A study of Homo sapiens with 6 samples.

Results

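The transcription factors BCL11A, BCL11B, SATB1, TOX, TOX2, ETS1, RUNX3, ZBTB7B, ZBTB7A and SPI1 were followed in MOLT-4, a widely used cell line grown from a human leukemia of T-lineage lymphoblasts (T-ALL). These 10 genes were chosen by symbol, out of 60640 gene identifiers in the tables, for their known parts in the commitment of progenitors to the T lineage. PolyA RNA was sequenced from 3 wild type libraries, which are the control of the CRISPR knockout, and from 3 libraries labelled IK-KO, made from cells whose IKZF1 gene, which encodes the DNA-binding regulator IKAROS, had been targeted with CRISPR-Cas. Both lines were grown in RPMI1640 with serum, and the comparison asks which transcripts differ between the edited line and its control. The edited and control cells were bought as lines and the labels name no clone, so differences between the lines other than the edit cannot be told apart from it. The labels do not say that the libraries are separate cultures, so the p-values measure only the spread between these libraries, which may be technical.

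Commitment to the T lineage is a handover between transcription factors in the thymus. Progenitors that receive NOTCH signals switch off factors of other lineages, such as PU.1 (the product of SPI1), and switch on BCL11B, which is required to keep the T-cell identity. ETS1, RUNX family members, SATB1 and TOX also act in the thymocyte, and ZBTB7B (ThPOK) and RUNX3 take part in the choice between the CD4 and CD8 lineages.

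The targeted gene was higher, not lower, in the libraries labelled IK-KO. IKZF1 was at 134, 124 and 105 FPKM in wild type replicates 1 to 3 and at 207, 260 and 207 FPKM in IK-KO replicates 1 to 3, or 0.89 higher on the log2 scale (SE 0.12, limma adjusted p 0.00295). A transcript level does not measure the protein, and the methods of the study state that the knockout was checked by PCR and western blot. FPKM is a count of sequenced fragments scaled for transcript length and for library size, and the depth of the libraries is unknown. Between 21254 and 21887 rows were above 0 in each library, and log2 values correlated at 0.969 to 0.979 within groups and 0.950 to 0.959 between them, across genes, which are not independent replicates. Of the fixed T-cell markers (CD3D, CD3E, CD3G, CD247, CD7, CD5, CD2 and LCK), 8 of 8 passed the filter of a mean of at least 1 FPKM, and their summed level lay between 1307 and 1374 FPKM in wild type and between 1526 and 1723 FPKM in IK-KO. Of these markers 6 were called, that is, had a limma adjusted p under 0.05, 3 higher and 3 lower, where 19.9% of all tested genes were called, 10.1% higher and 9.75% lower. CD2 fell from 61.5 ± 2.45 to 5.14 ± 0.217 FPKM, CD7 from 15.8 ± 0.887 to 4.17 ± 0.96 FPKM and CD5 from 25.3 ± 1.11 to 11.7 ± 1.59 FPKM. CD247 rose from 66.04 ± 0.883 to 246 ± 15.39 FPKM, CD3D from 490 ± 48.3 to 667 ± 90.5 FPKM and CD3G from 66.5 ± 6.24 to 105 ± 3.98 FPKM (SD, n = 3 throughout). The summed level was between 0.0842 and 0.617 FPKM in all 6 libraries for 8 myeloid markers, with CD33 and ELANE at 0 throughout, and at most 0.688 FPKM for 5 erythroid markers, with ALAS2 and HBB at 0. For 6 B-cell markers it was 1.52 to 3.66 FPKM in wild type and 1.10 to 1.64 FPKM in IK-KO, and for 6 NK-cell markers 3.32 to 4.98 and 1.52 to 5.01 FPKM, with NCR1 at 0. The part of these marker levels in the results below was not tested.

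Among the commitment factors, SATB1 rose and TOX2 and ETS1 fell in the libraries labelled IK-KO, whereas the other tested members, among them the abundant TOX, did not pass the test. TOX2 fell by 71.3%, ETS1 fell by 28.5%, and SATB1 was 1.58 times its wild type level. BCL11A and BCL11B exchanged their order, though neither passed the test and their confidence bounds overlapped in some libraries. ZBTB7B and SPI1 were listed at or close to 0 in every library. In bulk RNA, fewer cells with a transcript and less of it per cell cannot be told apart.

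Of the 10 genes, 8 passed the filter on low values and 3 of these 8 were called, where 19.9% of the 12652 tested genes were called. A gene is called when its limma p, adjusted by Benjamini-Hochberg over all tested genes, is under 0.05. Higher calls numbered 1 (background 10.1%) and lower calls 2 (background 9.75%). No overlap between the groups was seen for 7 of the 8 (background 39.0%), 2 of them higher in IK-KO (background 20.9%) and 5 lower (background 18.1%). The median log2 change of the 8 was −0.20, against 0.02 over all tested genes. Changes are on the scale of log2(FPKM + 1), on which changes of weakly expressed genes come out smaller than they are.

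**Figure D1:**
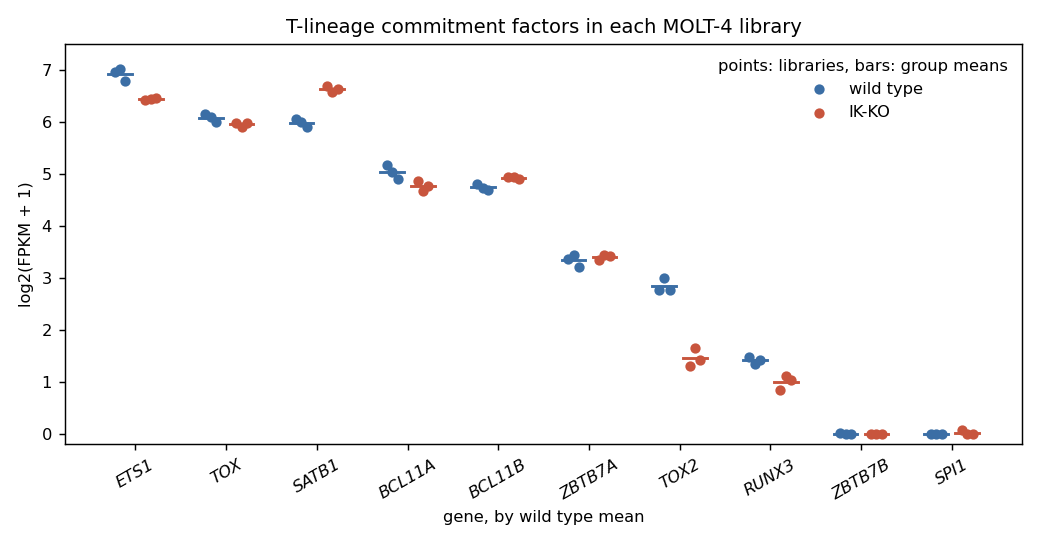
Level of the 10 commitment factors as log2(FPKM + 1) (vertical axis) in each library, ordered along the horizontal axis by wild type mean. Points are libraries and bars are the means of 3 libraries; SATB1 lies higher and ETS1 and TOX2 lie lower in all 3 IK-KO libraries, and ZBTB7B and SPI1 lie at or close to 0.

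Since FPKM is scaled for length, the listed levels were ordered between genes. Ranges are those of the 3 libraries of a group and leave out the confidence bounds. In some libraries the bounds overlapped between neighbours in the order, such as BCL11A and BCL11B. In wild type, ETS1 was highest (110 to 128 FPKM), followed by TOX (63.0 to 70.0 FPKM) and SATB1 (58.6 to 65.4 FPKM), whose ranges overlapped. BCL11A (29.0 to 34.99 FPKM), BCL11B (24.9 to 27.1 FPKM), ZBTB7A (8.31 to 9.89 FPKM), TOX2 (5.78 to 6.99 FPKM) and RUNX3 (1.55 to 1.78 FPKM) followed without overlap. In the libraries labelled IK-KO the order was SATB1 (94.1 to 103 FPKM), ETS1 (84.7 to 87.3 FPKM), TOX (58.7 to 62.5 FPKM), BCL11B (28.8 to 29.9 FPKM), BCL11A (24.6 to 28.1 FPKM), ZBTB7A (9.11 to 9.93 FPKM), TOX2 (1.48 to 2.17 FPKM) and RUNX3 (0.798 to 1.17 FPKM), and no neighbours in this order overlapped. SATB1 thus stood below ETS1 in each wild type library and was the highest member in each IK-KO library. In wild type, ETS1 lay above 94.5% of the tested genes, TOX above 89.6%, SATB1 above 88.7%, and RUNX3 above 9.33%. The FPKM summed over the 10 genes was 324 ± 20.04 in wild type and 314 ± 6.52 in IK-KO (SD, n = 3), so the summed level differed by less than the spread between wild type libraries.

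Promoter sequence was examined because SATB1 and TOX2 changed most among the members and in opposite directions, and because BCL11B is the defining commitment factor. RefSeq windows on GRCh38.p14, the 250 bases before an annotated start, were found for 7 of the 10 genes; ETS1, TOX and SPI1 had none. The window nearest the outer end of the gene in the tables is printed 5′ to 3′ on the strand of the gene, in lower case. Capitals mark the letters TGGGAA, a core that IKAROS is known to bind, on either strand (TTCCCA when reversed). The windows are chr3:18445593-18445842 (minus strand) for SATB1, chr20:43915880-43916129 (plus strand) for TOX2 and chr14:99272198-99272447 (minus strand) for BCL11B.
SATB1: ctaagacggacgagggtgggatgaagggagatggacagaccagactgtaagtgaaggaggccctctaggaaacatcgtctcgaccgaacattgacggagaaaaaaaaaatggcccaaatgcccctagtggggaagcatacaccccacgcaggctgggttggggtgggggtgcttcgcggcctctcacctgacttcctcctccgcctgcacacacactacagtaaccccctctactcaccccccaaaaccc
TOX2: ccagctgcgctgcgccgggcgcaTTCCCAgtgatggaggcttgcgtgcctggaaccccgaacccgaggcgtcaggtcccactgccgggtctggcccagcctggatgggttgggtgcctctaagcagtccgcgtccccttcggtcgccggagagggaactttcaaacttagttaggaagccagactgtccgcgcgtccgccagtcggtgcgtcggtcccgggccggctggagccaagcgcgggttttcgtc
BCL11B: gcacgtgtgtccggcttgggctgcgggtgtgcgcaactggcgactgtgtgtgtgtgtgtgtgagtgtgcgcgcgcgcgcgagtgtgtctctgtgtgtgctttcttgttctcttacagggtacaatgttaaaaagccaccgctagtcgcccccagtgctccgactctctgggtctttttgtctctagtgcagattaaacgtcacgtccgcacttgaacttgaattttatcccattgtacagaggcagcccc
The TOX2 window held a single match, whose first base lies 227 bases before the start, while those of SATB1 and BCL11B held none. That annotated start lies 1278 bases inside the outer end of TOX2 (0 for BCL11B and −4, that is outside, for SATB1). Of the nearest windows of the 7 genes, 3 held a match (TOX2, RUNX3 and ZBTB7B). Of all 18 windows of these genes 4 did, against 20.8% of all 35116 windows of this length. The letters TGTGGT, bound by RUNX proteins, were in 1 of the 7 (RUNX3, with 2 matches, both reversed, against 10.98% of all windows), and CCGGAA, bound by ETS proteins, in 0 of the 7 (14.5% of all windows). Other windows of BCL11A and SATB1 held TGTGGT, and a further window of SATB1 held CCGGAA. A match is only a run of letters and no match says nothing about binding elsewhere.

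BCL11B, a zinc finger factor that holds thymocytes in the T lineage, lies on chromosome 14 at 99169287 to 99272197, minus strand (ENSG00000127152.18; hg38, as for all positions given here). It was at 27.1, 25.6 and 24.9 FPKM in wild type replicates 1 to 3 and at 29.7, 29.9 and 28.8 FPKM in IK-KO replicates 1 to 3. Every IK-KO library was above every wild type library, by a small margin. The log2 change of 0.18 (SE 0.06, 95% interval 0.04 to 0.32) had an unadjusted limma p of 0.0173 and was not called (adjusted p 0.0731), and none of the alternative settings called it. Its confidence bounds had the width that between 2019 and 2404 counted fragments per library would give.

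BCL11A, the close relative of BCL11B that is known from progenitors, B cells and the silencing of fetal globin, lies on chromosome 2 at 60450520 to 60554467, minus strand (ENSG00000119866.22). It was at 34.99, 31.9 and 29.0 FPKM in wild type replicates 1 to 3 and at 28.1, 24.6 and 26.2 FPKM in IK-KO replicates 1 to 3. All IK-KO libraries lay below all wild type libraries, the nearest being 28.1 and 29.0 FPKM. The log2 change was −0.27 (SE 0.09, 95% interval −0.47 to −0.07), with an unadjusted limma p of 0.0163 and an adjusted p of 0.0701, so it was not called. It was called with median-ratio scaling (adjusted p 0.0327), with quantile normalization (0.0363), with the median deviation of its 20 nearest tested genes from their wild type means subtracted in each library (0.0193) and without wild type replicate 3 (0.0481), over a range of 0.0193 to 0.187 in all alternatives. Its bounds were wider than those of BCL11B at a like level, as if from 168 to 347 fragments per library; GENCODE 44 lists 27 transcripts for BCL11A and 3 for BCL11B.

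The ratio of BCL11A to BCL11B within a library does not depend on the scaling between libraries. The wild type replicates gave 1.29, 1.25 and 1.16, and the IK-KO replicates gave 0.945, 0.821 and 0.912. BCL11A was thus the more abundant per length in each wild type library and the less abundant in each IK-KO library. The mean ratio was 1.23 ± 0.0641 in wild type and 0.893 ± 0.0644 in IK-KO (SD, n = 3). No test was made of this ratio, since it was formed from members whose values were known.

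SATB1 folds chromatin into loops at lineage genes and is abundant in thymocytes. It lies on chromosome 3 at 18345377 to 18445588, minus strand (ENSG00000182568.17). It was at 65.4, 62.8 and 58.6 FPKM in wild type replicates 1 to 3 and at 103, 94.1 and 98.5 FPKM in IK-KO replicates 1 to 3. The lowest IK-KO library was well above the highest wild type library. The mean rose from 62.3 ± 3.4 to 98.6 ± 4.47 FPKM (SD, n = 3), which is 0.65 on the log2 scale (SE 0.06, 95% interval 0.51 to 0.80, limma adjusted p 0.000619). The call held in all 17 alternatives, with changes from 0.54 to 0.69. The lowest of these came with the deviation of its neighbours subtracted in each library.

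Genes whose intervals overlap SATB1 were read beside it, because the sources do not say whether fragments were assigned by strand. SATB1-AS1, a noncoding gene that starts on the opposite strand beside the SATB1 start, gave 5.63, 2.59 and 3.32 FPKM in the wild type replicates, against 8.54, 5.48 and 6.42 FPKM in the IK-KO replicates. The groups overlapped, and the gene was not called, with a log2 change of 0.72, an SE of 0.25 and a limma adjusted p of 0.0867. TBC1D5, a protein-coding gene whose interval covers nearly all of SATB1 on the same strand, had a log2 change of −0.05 (SE 0.15, adjusted p 0.843). Whether fragments were shared between these genes was not tested.

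TOX2 and TOX encode related HMG-box proteins; TOX is needed for the CD4 lineage in the thymus, and TOX2 is known from follicular helper T cells and natural killer cells. TOX2 lies on chromosome 20 at 43914852 to 44069616, plus strand (ENSG00000124191.18). It was at 5.82, 6.99 and 5.78 FPKM in wild type replicates 1 to 3 and at 1.48, 2.17 and 1.70 FPKM in IK-KO replicates 1 to 3. The highest IK-KO library lay far below the lowest wild type library. The mean fell from 6.20 ± 0.689 to 1.78 ± 0.35 FPKM (SD, n = 3), which is −1.38 on the log2 scale (SE 0.14, 95% interval −1.70 to −1.05, limma adjusted p 0.000854), and 97.8% of the tested genes had a smaller absolute change. The call held in all 16 alternatives that test the gene, and the change lay between −1.75 with a pseudocount of 0.1 and −1.25 with the deviation of its neighbours subtracted in each library. The bounds correspond to 185 to 237 fragments per wild type library and to 40.8 to 76.9 per IK-KO library.

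TOX lies on chromosome 8 at 58805412 to 59119147, minus strand (ENSG00000198846.6). It was at 70.0, 67.2 and 63.0 FPKM in wild type replicates 1 to 3 and at 62.4, 58.7 and 62.5 FPKM in IK-KO replicates 1 to 3. The groups did not overlap, though wild type replicate 3 and IK-KO replicate 3 differed by under 1 FPKM. The log2 change of −0.12 (SE 0.06, 95% interval −0.26 to 0.02) was not called (limma adjusted p 0.197) in any setting. AC090152.1, a noncoding gene that overlaps the start of TOX on the opposite strand, was not called either (log2 change 0.04, adjusted p 0.727). The ratio of TOX2 to TOX within a library was 0.0832, 0.104 and 0.0918 over the wild type replicates, against 0.0237, 0.0369 and 0.0272 over the IK-KO replicates. TOX thus made up most of the summed TOX and TOX2 level in both groups.

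ETS1, the founding ETS-domain factor, acts at many T-cell enhancers together with RUNX proteins. It lies on chromosome 11 at 128458761 to 128587558, minus strand (ENSG00000134954.14). It was at 123, 128 and 110 FPKM in wild type replicates 1 to 3 and at 84.7, 86.2 and 87.3 FPKM in IK-KO replicates 1 to 3. All IK-KO libraries lay within 3 FPKM of each other and below all wild type libraries. The mean fell from 120 ± 9.50 to 86.0 ± 1.33 FPKM (SD, n = 3), which is −0.48 on the log2 scale (SE 0.06, 95% interval −0.63 to −0.32, limma adjusted p 0.00302). The call held in all 17 alternatives, with changes from −0.58 to −0.43. Its bounds had the width that between 3061 and 4168 fragments per library would give, the highest implied values of the 10 genes.

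**Figure D2:**
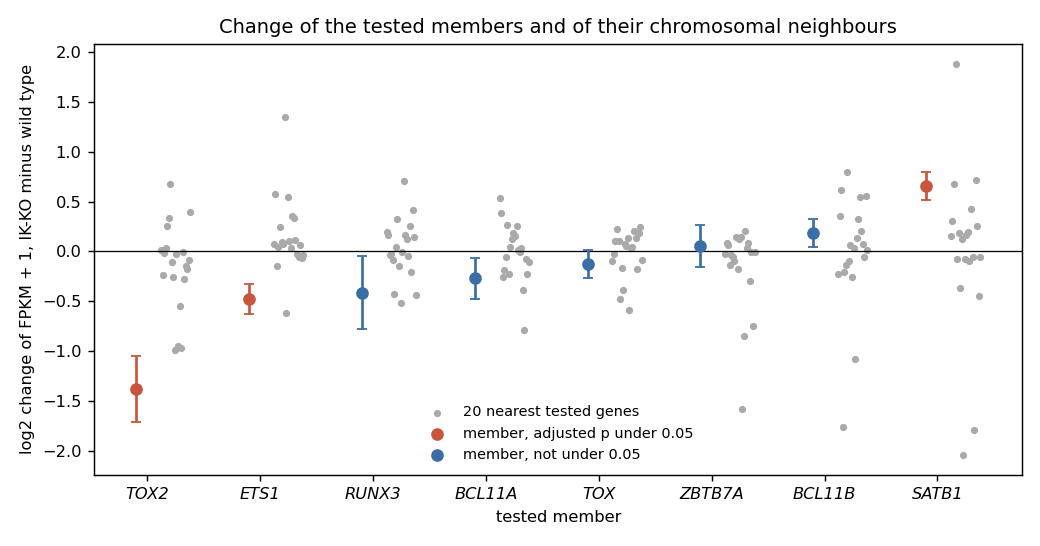
Log2 change of FPKM + 1, IK-KO minus wild type (vertical axis), of the 8 tested commitment factors, with 95% intervals from limma, beside the changes of the 20 nearest tested genes of each (grey, in chromosomal order). TOX2, ETS1 and SATB1 pass the threshold on the adjusted p; the intervals of BCL11A, BCL11B and RUNX3 leave out 0 without passing it.

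The ratio of SATB1 to ETS1 within a library was 0.532, 0.489 and 0.533 over the wild type replicates, against 1.22, 1.09 and 1.13 over the IK-KO replicates. SATB1 was below ETS1 in each wild type library and above it in each IK-KO library. Against TOX, SATB1 stood at 0.933, 0.935 and 0.931 in wild type and at 1.65, 1.605 and 1.57 in IK-KO. These ratios were formed after the values were seen and were not tested.

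**Figure D3:**
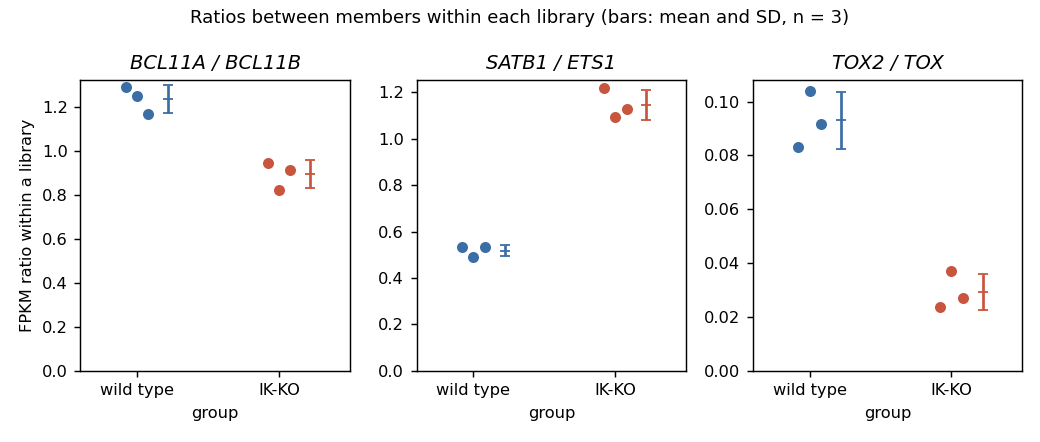
Ratio of FPKM between members within each library (vertical axis, linear from 0) in wild type and IK-KO; points are libraries and bars the mean and SD of 3 libraries. BCL11A to BCL11B goes from above 1 to below 1, SATB1 to ETS1 from below 1 to above 1, and TOX2 to TOX is lower in every IK-KO library.

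RUNX3 and ZBTB7B oppose each other in the CD4 and CD8 lineage choice, and both were low in MOLT-4. RUNX3 lies on chromosome 1 at 24899511 to 24965121, minus strand (ENSG00000020633.18). It was at 1.78, 1.55 and 1.69 FPKM in wild type replicates 1 to 3 and at 0.798, 1.17 and 1.07 FPKM in IK-KO replicates 1 to 3. The groups did not overlap. The log2 change of −0.41 (SE 0.16, 95% interval −0.78 to −0.05) had an unadjusted limma p of 0.0314 and was not called (adjusted p 0.108); it was called when no mean-variance trend was fitted (adjusted p 0.0288; range over its alternatives 0.0288 to 0.216). The bounds imply 31.6 to 41.2 fragments per wild type library and 8.43 to 20.01 per IK-KO library, the lowest implied values of the tested members. RUNX1, its abundant relative, was at 111 ± 0.799 FPKM in wild type and 106 ± 1.36 FPKM in IK-KO (SD, n = 3) and was not called.

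ZBTB7B, on chromosome 1 at 155002630 to 155018522, plus strand (ENSG00000160685.13), was listed at 0.0136 FPKM in wild type replicate 1, with an upper bound of 0.422 FPKM, and at 0 elsewhere. It was below the filter, and this factor of the CD4 lineage was not detectable at this depth in the IK-KO libraries. ZBTB7A (LRF), its widely expressed relative, which restrains NOTCH signals in B-cell progenitors, lies on chromosome 19 at 4043303 to 4066899, minus strand (ENSG00000178951.9). The wild type replicates gave 9.35, 9.89 and 8.31 FPKM, and the IK-KO replicates gave 9.11, 9.93 and 9.69 FPKM. It was the only tested member whose groups overlapped. The log2 change of 0.06 (SE 0.09, limma adjusted p 0.709) has a 95% interval from −0.16 to 0.27, and turned to −0.0064 without wild type replicate 3. AC016586.1, a noncoding gene within the ZBTB7A interval on the same strand, was not called (adjusted p 0.784).

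SPI1 encodes PU.1, the myeloid and B-cell factor that is silenced as T-cell progenitors commit. It lies on chromosome 11 at 47354860 to 47378576, minus strand (ENSG00000066336.11). Only IK-KO replicate 1 listed it above 0, with 0.0574 FPKM and bounds of 0 and 0.313 FPKM. Its relatives SPIC and SPIB were at 0 throughout and at 0.404 ± 0.277 against 0.244 ± 0.329 FPKM (SD, n = 3), respectively. No gain of SPI1 was detectable in the libraries labelled IK-KO.

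Among the other close relatives, ETS2 and RUNX2 were called. ETS2 fell from 16.8 ± 1.77 to 11.5 ± 0.238 FPKM (SD, n = 3), which is −0.51 on the log2 scale (SE 0.09, limma adjusted p 0.0079), the same direction as ETS1. RUNX2, a factor of bone formation that is also made in early thymocytes, rose from 1.605 ± 0.511 to 3.53 ± 0.394 FPKM (SD, n = 3), which is 0.81 on the log2 scale (SE 0.17, adjusted p 0.0173). RUNX3 and RUNX2 thus had changes of opposite sign, of which only that of RUNX2 passed the test. TOX4 (29.4 ± 3.48 and 31.7 ± 2.16 FPKM) and ZBTB7C (1.27 ± 0.102 and 1.91 ± 0.0596 FPKM; SD, n = 3) were not called, and TOX3 was at 0 in all libraries.

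The wider set of T-cell specification factors was read from a list of 18 other genes. Of these, 16 passed the filter and 6 were called (background 19.9%), 5 higher (background 10.1%) and 1 lower (background 9.75%), with a median log2 change of 0.10 over the 16. The basic helix-loop-helix repressor HES1, a direct NOTCH target, rose from 35.2 ± 2.46 to 53.2 ± 2.93 FPKM (log2 change 0.58, SE 0.07). LEF1, an HMG-box partner of beta-catenin, rose from 729 ± 48.3 to 989 ± 36.3 FPKM (0.44, SE 0.06), and GATA3, which is required for early T cells, from 54.7 ± 4.33 to 74.4 ± 4.19 FPKM (0.44, SE 0.07). FLI1, an ETS-family factor, rose from 43.8 ± 2.50 to 56.4 ± 4.89 FPKM (0.36, SE 0.08), and BACH2, a repressor that restrains effector genes, fell from 5.62 ± 0.57 to 3.31 ± 0.246 FPKM (−0.62, SE 0.11; SD, n = 3 throughout). The limma adjusted p of these 5 genes lay from 0.00199 to 0.0187. NOTCH1, MYB, TCF3, TCF12, RUNX1, CBFB and GFI1 did not pass the test.

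Factors of progenitors and other lineages were read from a list of 23 genes, of which 11 passed the filter and 5 were called (background 19.9%), 1 higher (background 10.1%) and 4 lower (background 9.75%), with a median log2 change of −0.34. ERG, an ETS-family factor of stem cells, fell from 15.8 ± 1.03 to 4.23 ± 0.264 FPKM (log2 change −1.68, SE 0.09). HHEX, a homeobox factor of progenitors, fell from 4.86 ± 0.121 to 0.573 ± 0.341 FPKM (−1.92, SE 0.18), TAL1 from 23.1 ± 1.75 to 12.3 ± 0.817 FPKM (−0.86, SE 0.08) and its partner LMO2 from 5.04 ± 0.521 to 2.81 ± 0.577 FPKM (−0.67, SE 0.14). HHEX passed the filter only through its wild type libraries. CEBPB, known from myeloid and inflammatory genes, rose from 11.03 ± 0.697 to 17.8 ± 2.18 FPKM (0.64, SE 0.10; SD, n = 3 throughout). The limma adjusted p of these 5 lay from 7.56e-05 to 0.0182. GATA1 and HOXA9 were at 0 in all libraries.

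Genes known from other work to respond to the commitment factors made up a list of 24, which shares ID2, ZBTB16 and NFIL3 with the list of progenitor and other-lineage factors. Of these 9 passed the filter and 5 were called (background 19.9%), 1 higher (background 10.1%) and 4 lower (background 9.75%), with a median log2 change of −0.64. RAG1 and RAG2, the recombinase genes that SATB1 is known to activate in mouse thymocytes, fell from 58.3 ± 4.06 to 16.6 ± 1.43 FPKM (log2 change −1.75, SE 0.08) and from 18.1 ± 2.08 to 10.2 ± 2.92 FPKM (−0.81, SE 0.20) in the same libraries in which SATB1 was higher. The intervals of RAG1 and RAG2 overlap in the tables, so their values may share fragments. CD4 fell from 2.76 ± 0.178 to 0.384 ± 0.117 FPKM (−1.45, SE 0.15) and CD8A from 9.02 ± 0.627 to 2.94 ± 0.331 FPKM (−1.35, SE 0.11). CD4 passed the filter only through its wild type libraries. CD8B, which encodes the other CD8 chain, was not called (log2 change −0.64, SE 0.36, adjusted p 0.263), and its groups overlapped. PTCRA, the pre-T-cell receptor chain, rose from 1.44 ± 0.484 to 2.90 ± 0.535 FPKM (0.69, SE 0.19, limma adjusted p 0.0466; SD, n = 3 throughout). ID2 and NFIL3, which BCL11B is known to restrain, were not called (adjusted p 0.578 and 0.129), and the fetal globin genes HBG1 and HBG2, restrained by BCL11A and ZBTB7A, were at 0 in all libraries. The genes known to be driven by PU.1 (CSF1R, CSF2RA, CSF3R, ITGAM, TYROBP, FCER1G and BTK) were all below the filter and were not tested. CSF2RA, a cytokine receptor chain, gave 0.226, 0.127 and 0.293 FPKM in the wild type replicates, against 0.909, 0.654 and 0.879 FPKM in the IK-KO replicates, without overlap. Mean levels of ITGAM, TYROBP, FCER1G and BTK were at most 0.107 FPKM in wild type and 0.217 FPKM in IK-KO. Each mean was higher in IK-KO, but TYROBP was above 0 only in IK-KO replicate 3 (0.345 FPKM). FCER1G and BTK were at 0 in IK-KO replicate 2, and their groups overlapped. The groups of ITGAM did not overlap, at 0.0931 FPKM or less. Mean levels of CSF1R and CSF3R were 0.00439 and 0.00245 FPKM in wild type and 0 in IK-KO.

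**Figure D4:**
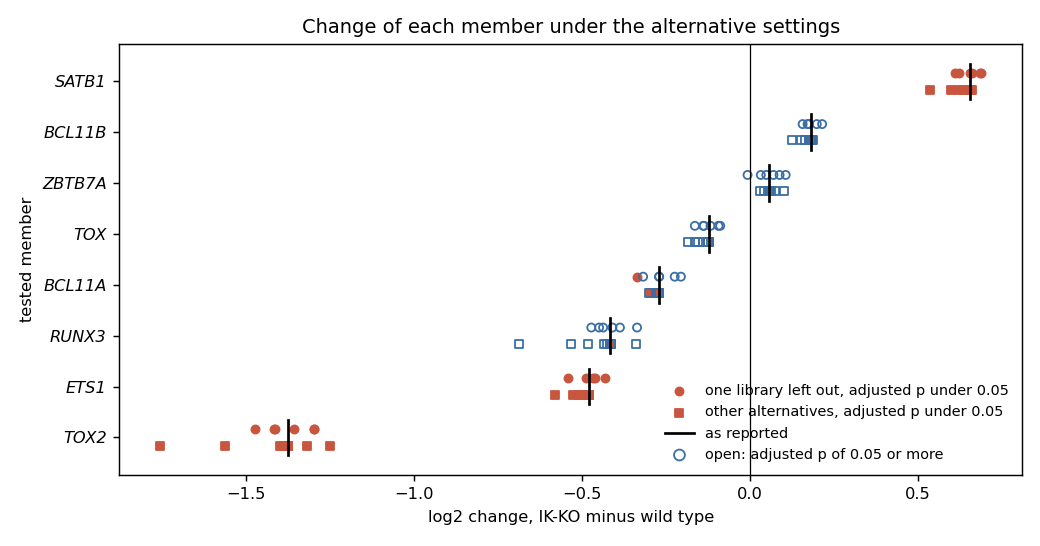
Log2 change, IK-KO minus wild type (horizontal axis), of each tested member under the alternative settings: circles leave out 1 library, squares are the others, filled marks have an adjusted p under 0.05 and the black line is the reported change. SATB1, ETS1 and TOX2 are filled throughout, BCL11A in 4 settings and RUNX3 in 1.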

How the data were processed

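The authors deposited 1 table of FPKM values per library, with confidence bounds and an estimation status. Per the submitters' processing notes, STAR 2.6.1c, Cufflinks 2.2.1 and HOMER 4.10 were used on hg38; annotation and strand setting are not given in the sources used here. Rows of 1 identifier were summed, and 29 genes not estimated in some library were left out. The test was limma 3.58.1 (R 4.3.3; mean-variance trend, two-sided, Benjamini-Hochberg), applied to log2(FPKM + 1) of 12652 genes with a mean of at least 1 FPKM. Strands and transcript numbers come from GENCODE 44. Read counts were not used here, so no count model was run. Fragments were implied from the bounds, read as 2 Poisson SD. In single-transcript genes with fewer than 40, 59.6% to 60.8% of implied values were whole to within 0.05 (10% if spread evenly). The check covered neither genes with several transcripts, as are all members but TOX, nor values of 40 or more. Implied fragments are therefore approximate. Simulated data tested the fit: 75% of genes changed by 1 (log2) and 20% of those changed by 0.5 were called among 12652. Of the unchanged genes 10 and 8 were called, respectively. Only 200 genes were changed in each simulation, where 2515 were called in the data, so these shares do not give the recovery in the data.

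All 10 members and IKZF1 were named whatever their values; of each other list, at most the 5 called genes with the largest change, and the close relatives, of which 1 is not reported here; and genes that overlap a member at 0.5 FPKM or more in either group. The members and lists (commitment factors, other specification factors, progenitor and other-lineage factors, relatives, responding genes, markers of T, B, myeloid, NK and erythroid cells) were chosen with earlier results of these data known. For TOX2, the member with the largest change, the 3 genes of nearest profile were named too. Other genes were named after their values were seen.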

Additional observations from a re-analysis of the deposited data

How the results depend on the processing

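The number of commitment factors called, 3 as reported, was 3 in 11 of the 17 alternatives, 4 in 5 and 2 in 1; the last required a mean of 5 FPKM, which left TOX2 untested. Leaving out 1 library gave 3 to 4. Over all tested genes, 2515 were called as reported and 1692 to 2803 in the alternatives (1692 to 2004 without 1 library, with fewer libraries in each fit), and the share of these that were higher lay between 44.3% and 55.5%. The change of ZBTB7A, which was not called, lay from −0.0064 to 0.11 without 1 library. Deviations from the group means correlated at 0.0669, 0.0248 and 0.00546 between libraries of equal replicate number. Libraries of unequal number were not compared, so these values do not settle whether the replicate numbers mark pairs. With the replicate block, 3 commitment factors and 1805 genes were called. RUNX3 was low and ZBTB7B and SPI1 were at or close to 0, and the part of depth, which is unknown, was not tested. All alternatives were planned.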

Other observations

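Genes around the called members were read from their positions. Of the 20 tested genes nearest TOX2, spread over 1925 kb, 5 were called and all 5 were lower, with a median log2 change of −0.10 over the 20. Over all tested genes 19.9% were called and 9.75% were called lower, and 5 of 20 were also called around RUNX3 (3 higher, 2 lower) and around ZBTB7B (4 higher, 1 lower). PKIG, an inhibitor of protein kinase A, changed by −0.99 (limma adjusted p 0.00467) with its midpoint 586 kb from that of TOX2, LINC01260 by −0.94 (0.00245) at 668 kb and KCNK15-AS1 by −0.97 (0.0418) at 728 kb; these genes were chosen after their values were seen. Around ETS1, 4 of 20 were called, 3 higher and 1 lower, a share close to that over all tested genes. Its close neighbour FLI1, with its midpoint 227 kb away, rose (log2 change 0.36) where ETS1 fell. Around SATB1, 2 of 20 were called, both higher, and around SPI1 0 of 20.

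The genes whose profile over the 6 libraries lay nearest to that of TOX2, by Euclidean distance on log2(FPKM + 1) centred on the wild type mean, were DDIT4 (distance 0.201), a stress-induced inhibitor of mTOR, HEBP1 (0.203), a heme-binding protein, and TMC8 (0.212). They fell from 22.3 ± 0.56 to 8.28 ± 0.93, from 7.0 ± 0.826 to 2.03 ± 0.125 and from 22.6 ± 2.199 to 8.15 ± 1.80 FPKM (SD, n = 3), and lie on chromosomes 10, 12 and 17.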
